A study of Mus musculus with 12 samples.

Results

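Complement is a system of plasma proteins, cell-surface regulators and receptors that marks and lyses microbes and dying cells. The 33 genes described here encode its components, regulators and receptors, out of 47729 genes with counts in mouse liver. They were taken by name and grouped by role in the pathway and by the cell type that is best known to make each one. Of these, 21 are made mainly by hepatocytes, 7 by macrophages or other myeloid cells and 5 by other cells. All 33 were found in the files, and all 33 passed the filter on low counts, as did 16823 genes in all. Cfd passed it through the diseased groups, since its 4 healthy libraries held 5, 0, 11 and 1 counts.

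The samples were whole livers of 12 C57BL/6 mice, 4 in each of 3 groups, taken at 9 weeks of age. Healthy mice (Naive_vehicle) were wild type and carried the vehicle label. STAM mice, which were male, received streptozotocin on day 2 of life, a toxin of the insulin-producing beta cells, and a high-fat diet from week 4. They were given vehicle (STAM_vehicle) or 10 mg/kg I-BET151 (STAM_treated) by mouth each day from week 6 to week 9. I-BET151 inhibits the BET proteins, which bind acetylated histones and assist transcription. The toxin and the diet were always given together, so the share of each in a difference between vehicle and healthy liver cannot be told apart. The labels and methods do not say whether the 4 mice of a group shared a cage or litter, so the p-values measure the spread between these mice.

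Libraries held 39528620 to 49485066 counts in healthy mice, 40279918 to 50378953 in vehicle mice and 34711229 to 53365596 in I-BET151 mice. I-BET151 mouse 3 stood apart. Its TMM scaling factor (the correction for libraries that differ in composition) was 1.609, against 0.7696 to 1.108 in the other 11 mice. Mitochondrial genes took 2.71% of its counts against 4.51% to 7.3%, and its 10 most abundant genes took 7.95% against 13.5% to 18.0%. The summed level of 6 hepatocyte marker genes was 17375 CPM (read counts scaled to the size of the library) in this mouse, 63014 to 77362 in the other I-BET151 mice, 42552 to 66005 in vehicle mice and 92596 to 110450 in healthy mice. Most of this sum was Alb, at 12574 CPM in this mouse and at means of 41310 CPM in vehicle and 81119 CPM in healthy mice. The study left out 1 I-BET151 sample that its methods do not name, so all 4 were kept here and each test is also given without mouse 3. Levels below are CPM on TMM-scaled library sizes. A difference is a log2 fold change ± its standard error (SE) from edgeR's quasi-likelihood test, with p-values adjusted by the Benjamini-Hochberg method over all genes tested.

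Complement starts by 3 routes. In the classical route, C1q binds antibody or dying cells and activates the proteases C1r and C1s. In the lectin route, mannose-binding lectins and ficolins bind sugars and act through the MASP proteases. The alternative route runs at a low rate in plasma and is amplified by factor B, factor D and properdin. Every route leads to the cleavage of C3, the hub of the system, and C5 (the gene Hc in mice) then starts the membrane attack complex of C5b to C9. The liver supplies most of the plasma components, whereas Kupffer cells and other macrophages make C1q and properdin and carry receptors for the fragments C3a and C5a.

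In healthy liver the level per length of transcript ran over more than 3 orders of magnitude. C3 led with 1598.5 ± 192.2 CPM per kilobase of exon (SD, n = 4), with individual mice from 1422 to 1803. Vtn, which encodes vitronectin, an inhibitor of the membrane attack complex, came next at 973.5 ± 78.7 CPM per kilobase. The regulators Clu (clusterin) and Serping1 (C1 inhibitor) followed at 434.6 ± 53.7 and 402.4 ± 56.6 CPM per kilobase, and their ranges overlapped. At the other end stood Cd46, a membrane cofactor for factor I that mice express mostly in testis, at 0.182 ± 0.0149 CPM per kilobase, and Cfd at 0.123 ± 0.157. Of the 32 neighbouring pairs in this order, 11 had healthy mice whose ranges did not overlap. In vehicle liver the first 7 places were held in the same order, whereas Cfd moved from place 33 to place 27. The 33 genes together took 1.55% to 1.66% of the counts in healthy mice, 1.52% to 2.1% in vehicle mice and 1.46% to 2.87% in I-BET151 mice.

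The comparison of vehicle with healthy mice shows what the STAM regimen changed. Both anaphylatoxin receptor genes and properdin were higher in vehicle mice, as was factor D, and no member was lower at an adjusted p of at most 0.05. In edgeR's test on all 12 mice, 4 of the 33 members (12.1%) were higher (C5ar1, C3ar1, Cfp and Cfd), beside 5.72% of all genes tested, and 0 were lower, beside 1.38%. Cfd entered the test through the diseased groups and so had to differ. Without it the count was 3 of 32 members (9.38%). At an unadjusted p under 0.05 the count was 9 members (27.3%), beside 22.3% of all genes tested. DESeq2 called 5 members (15.2%) higher (C1qb in addition), beside 4.77% of its 29576 genes, and 1 (3.03%) lower (C8g), beside 1.69%. Without I-BET151 mouse 3, which belongs to neither group and enters through the estimate of spread that the groups share, 7 members (21.2%) were higher, beside 12% of all genes, and 3 (9.09%) were lower, beside 10.3%, so the share of lower members was near that of all genes. The median log2 fold change was 0.023 among the members and 0.0089 among all genes. In whole liver, fewer cells of a type and less RNA per cell cannot be told apart, in either direction.

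C5ar1 encodes the receptor for C5a, the fragment that draws in neutrophils and macrophages. It lay at 1.49, 1.22, 1.48 and 1.29 CPM in the healthy mice and at 2.91, 4.59, 5.65 and 4.05 CPM in the vehicle mice. Every vehicle mouse was above every healthy mouse. The difference was a log2 fold change of 1.65 ± 0.32 (3.13-fold; edgeR quasi-likelihood test, adjusted p = 0.008), and 1.63 ± 0.25 without I-BET151 mouse 3 (adjusted p = 0.00138). It passed in each of the 12 fits that left out 1 mouse, with an adjusted p of at most 0.0352. The gene lies on chromosome 7 at 16246743 to 16259540 (GRCm38, minus strand).

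C3ar1 encodes the receptor for C3a, which acts on myeloid cells. Healthy mice held 4.45, 3.55, 2.76 and 2.82 CPM and vehicle mice 4.86, 7.33, 9.90 and 7.79 CPM. The groups did not overlap, although vehicle mouse 1 was close to healthy mouse 1. C3ar1 had a log2 fold change of 1.14 ± 0.25 (2.20-fold, edgeR adjusted p = 0.0155), and 1.11 ± 0.24 without I-BET151 mouse 3 (adjusted p = 0.00778). The call was lost without healthy mouse 3, healthy mouse 4 or vehicle mouse 3, with edgeR adjusted p-values of 0.0612, 0.0581 and 0.06. The gene lies on chromosome 6 at 122847138 to 122856161 (minus strand).

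The 3 chains of C1q are encoded side by side on chromosome 4 between 136880129 and 136898803, all on the minus strand, and are made by macrophages. C1qa lay at 41.0, 30.9, 33.3 and 29.5 CPM in healthy mice and at 40.2, 50.3, 82.7 and 63.0 CPM in vehicle mice. C1qb lay at 44.1, 34.4, 34.8 and 32.7 CPM against 46.1, 55.6, 96.6 and 71.4 CPM. C1qc lay at 45.9, 36.4, 42.5 and 33 CPM against 44.8, 55.3, 105.4 and 71.5 CPM. In all 3 genes vehicle mouse 3 was the highest of the 12 mice and vehicle mouse 1 was at the top of the healthy range. Only C1qb had groups that did not overlap.

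On all 12 mice the 3 chains missed the threshold in edgeR's test. Their log2 fold changes were 0.81 ± 0.28, 0.89 ± 0.28 and 0.81 ± 0.30 for C1qa, C1qb and C1qc, with adjusted p-values of 0.0953, 0.0764 and 0.125. With I-BET151 mouse 3 left out they were 0.79 ± 0.19, 0.87 ± 0.21 and 0.79 ± 0.22 and all 3 passed, with adjusted p-values of 0.0138, 0.0122 and 0.023. The chains kept their proportions. The ratio of C1qa to C1qc per length was 1.59 ± 0.0954 in healthy mice, 1.61 ± 0.106 in vehicle mice and 1.52 ± 0.0484 in I-BET151 mice (SD, n = 4), and that of C1qb to C1qc was 1.65 ± 0.134, 1.75 ± 0.0882 and 1.76 ± 0.121.

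Properdin, encoded by Cfp on the X chromosome and made by myeloid cells, stabilises the C3 convertase of the alternative route. It lay at 28.0, 18.9, 21.5 and 18.7 CPM in healthy mice and at 26.3, 29.5, 45.2 and 35.7 CPM in vehicle mice, so that healthy mouse 1 exceeded vehicle mouse 1. The log2 fold change was 0.65 ± 0.18 (1.57-fold, edgeR adjusted p = 0.0443), and 0.63 ± 0.17 without I-BET151 mouse 3 (adjusted p = 0.0208). This call passed in 4 of the 12 fits that left out 1 mouse. It was lost without healthy mouse 2, 3 or 4, vehicle mouse 2, 3 or 4, or I-BET151 mouse 1 or 4, with edgeR adjusted p-values from 0.0546 to 0.156. It was also lost with DESeq2's size factors in place of TMM (edgeR adjusted p = 0.0527) and under the replicate block (adjusted p = 0.0874). Fcna, the ficolin of macrophages, was the remaining member of this source. It lay at 26.9 ± 3.86 CPM in healthy and 32.6 ± 5.75 CPM in vehicle mice and did not pass (log2 fold change 0.28 ± 0.22, adjusted p = 0.493).

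**Figure D1:**
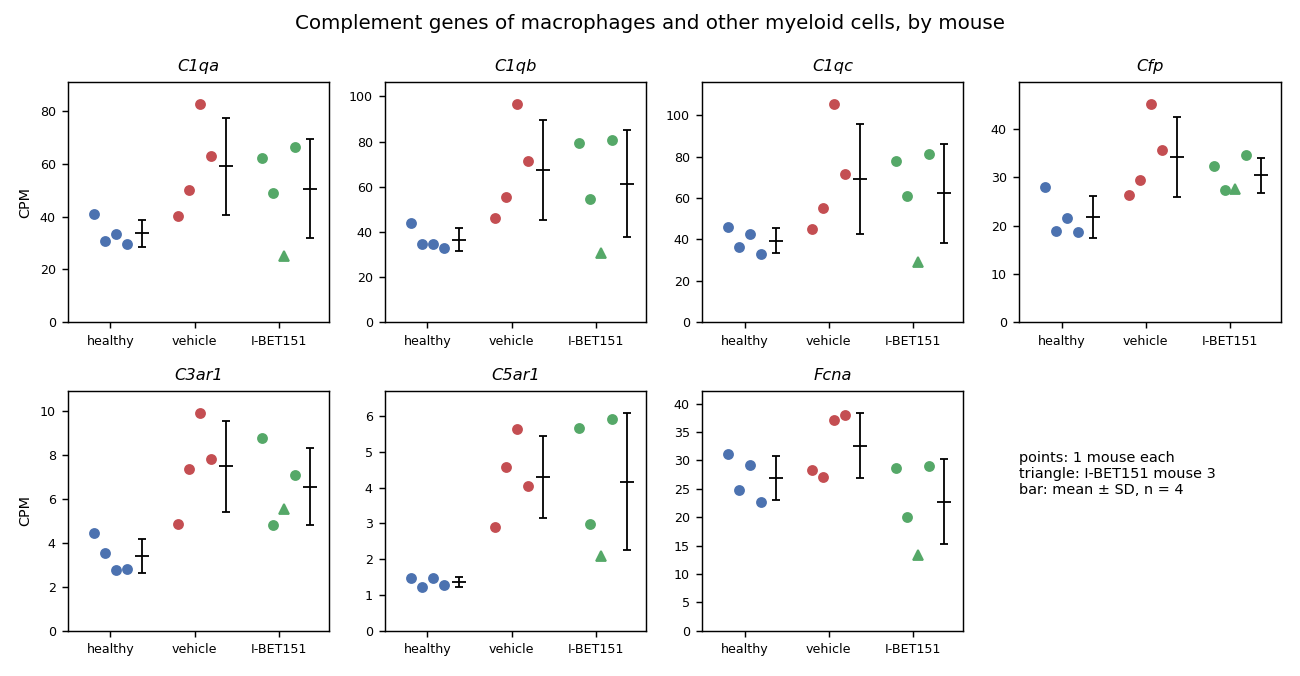
Levels in CPM (vertical axes, from 0) of the 7 complement genes with a macrophage or other myeloid source in each mouse of the 3 groups; points are mice, the triangle is I-BET151 mouse 3, and bars are means ± SD of 4 mice. C3ar1, C5ar1 and C1qb separate vehicle from healthy mice, vehicle mouse 3 is the highest mouse in C1qa, C1qb, C1qc, Cfp and C3ar1, and I-BET151 mouse 3 is below every other I-BET151 mouse in 5 of the 7 genes.

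All 7 members with a myeloid source had higher means in vehicle than in healthy mice, as did 8571 of the 16823 genes tested. The median log2 fold change of these 7 members was 0.81. Of them 3 passed as higher on all 12 mice, beside 5.72% of all genes tested. Without I-BET151 mouse 3, 6 of them passed as higher, beside 12% of all genes. Markers of the cells that make these members moved with them. Of 6 Kupffer cell markers, 3 passed as higher (Clec4f, Marco and Adgre1) and 5 did so without I-BET151 mouse 3. Their summed level was 150.5 to 216.3 CPM in healthy mice, 251.0 to 483.4 CPM in vehicle mice and 181.8 to 430.9 CPM in I-BET151 mice. Of 5 general macrophage markers, Cd68 passed, and 4 did so without that mouse. Their sum was 91.7 to 130.4 CPM in healthy mice, 138.6 to 254.4 CPM in vehicle mice and 127.1 to 247.1 CPM in I-BET151 mice. Vehicle mouse 3 had the highest sum of both lists. Of 5 monocyte and neutrophil markers, Ly6c2 and Csf3r passed, with sums of 3.87 to 6.94 CPM in healthy and 8.17 to 18.9 CPM in vehicle mice. Of 4 markers of lipid-associated macrophages, Trem2 (log2 fold change 2.32, edgeR adjusted p = 0.00322) and Gpnmb (3.21, adjusted p = 0.001) passed. Their list summed to 38.8 to 63.5 CPM in healthy mice, 63.6 to 98.4 CPM in vehicle mice and 67.9 to 106.9 CPM in I-BET151 mice. Spp1 and Cd9 made up most of this sum, and neither passed (log2 fold changes 0.37 and 0.46, edgeR adjusted p = 0.285 and 0.418). Their means were 42.2 and 11 CPM in healthy mice and 54.6 and 15.2 CPM in vehicle mice. Trem2 and Gpnmb had means of 0.477 and 0.648 CPM in healthy mice and 2.42 and 6.14 CPM in vehicle mice. The part of the cells marked by these lists in the higher means of the receptors, C1q and properdin was not tested.

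Factor D, encoded by Cfd and also called adipsin, is the protease that cleaves factor B. Adipocytes are its best-known source. It lay at 0.106, 0, 0.320 and 0.0288 CPM in healthy mice, at 8.29, 0.952, 4.37 and 7.41 CPM in vehicle mice and at 3.06, 2.35, 1.09 and 1.33 CPM in I-BET151 mice. In counts this was 345, 50, 226 and 349 in the vehicle libraries, so even the lowest vehicle mouse stood above the highest healthy one. The fitted log2 fold change between vehicle and healthy mice was 5.52 ± 0.81 (edgeR adjusted p = 0.00155). Since Cfd passed the filter on low counts only through the groups where it is high, it had to differ, and this p is given as a description. The size of the fold rests on healthy libraries with 5, 0, 11 and 1 counts, so it is imprecise and is no bound. The gene lies on chromosome 10 at 79890853 to 79892655 (plus strand).

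Among 5 adipocyte markers, Lep was at 0 in every mouse. Adipoq reached at most 0.212 CPM (healthy mouse 2), Plin1 at most 0.143 CPM (I-BET151 mouse 3) and Retn at most 0.0637 CPM, and none of these passed the filter on low counts. These 4 markers were at or near 0 in all groups. The remaining marker, Cidea, a lipid droplet protein that steatotic hepatocytes can also express, lay at 0.0638, 0.0530, 0.0872 and 0.115 CPM in healthy mice and at 3, 0.533, 2.67 and 2.12 CPM in vehicle mice, each above every healthy mouse. In both Cfd and Cidea vehicle mouse 2 was the lowest of its group. Which cells made Cfd was not tested.

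**Figure D2:**
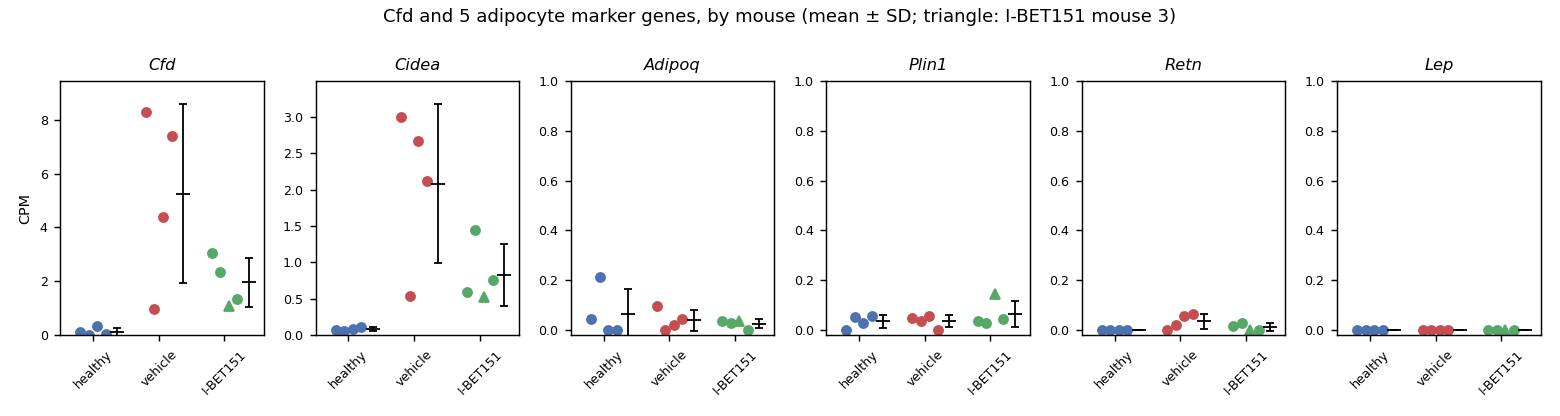
Levels in CPM (vertical axes) of Cfd and 5 adipocyte marker genes in each mouse; points are mice, the triangle is I-BET151 mouse 3 and bars are means ± SD of 4 mice. Cfd and Cidea are high in 3 of the 4 vehicle mice and low in all healthy mice, whereas Adipoq, Plin1, Retn and Lep reach at most 0.212 CPM in any of the 12 mice.

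Of the 21 hepatocyte-made members, 14 had lower means in vehicle than in healthy mice, as did 8252 of the 16823 genes tested (49.1%). Their median log2 fold change was -0.21, and 0 passed in either direction in edgeR's test on all 12 mice (2 had an unadjusted p under 0.05). Once I-BET151 mouse 3 was left out, 3 of these 21 members passed as lower, beside 10.3% of all genes tested. In that fit 0 of them passed as higher, beside 12% of all genes. Over the 33 members, 4 were higher with groups that did not overlap (C1qb, Cfd, C3ar1 and C5ar1), beside 14.2% of all genes tested. Likewise 4 were lower with groups that did not overlap (C8g, Cfb, Mbl1 and Vtn), beside 12.2% of all genes, and these 4 are all made by hepatocytes. Each count is 12.1% of the members, close to the share among all genes. The 6 hepatocyte markers had a median log2 fold change of -0.53. On all 12 mice 0 passed, and 3 (Alb, Ttr and Apoa1) passed as lower without I-BET151 mouse 3. Tat, Asgr1 and Hnf4a passed in neither fit. Asgr1 and Hnf4a were nearly level, with log2 fold changes of -0.06 and -0.02 on all 12 mice, and Tat had -0.44. The part of the hepatocyte markers in the lower levels was not tested.

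C8g encodes the gamma chain of C8, a lipocalin carried by the membrane attack complex. It lay at 168.3, 175.3, 202.3 and 201.2 CPM in healthy mice and at 132.7, 126.7, 93.1 and 128.7 CPM in vehicle mice. This was a log2 fold change of -0.63 ± 0.20 (1.55-fold lower, edgeR adjusted p = 0.0669), and -0.66 ± 0.16 without I-BET151 mouse 3 (adjusted p = 0.0141). Its partners in C8 did not separate the groups. C8a lay at 371.5 ± 92.2 against 291.4 ± 39.3 CPM and C8b at 234.5 ± 80.4 against 161.2 ± 59.4 CPM, with edgeR adjusted p-values of 0.486 and 0.437. C8g overlaps Fbxw5 on the opposite strand; the library kit kept strand, but the strand setting of the counting is not given in the sources used here.

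Cfb encodes factor B, the protease of the alternative C3 convertase. It lay at 14.1, 15.1, 20.7 and 19.3 CPM in healthy mice and at 11.9, 12, 10.2 and 12.4 CPM in vehicle mice. The log2 fold change was -0.57 ± 0.19 (1.49-fold lower, edgeR adjusted p = 0.0803), and -0.59 ± 0.14 without I-BET151 mouse 3 (adjusted p = 0.0108). Cfb and its neighbour C2 share a readthrough gene model on the same strand, so reads could be split between them. C2, the corresponding protease of the classical and lectin routes, was at 33.6 ± 5.95 and 37.2 ± 4.48 CPM and did not pass (log2 fold change 0.15 ± 0.15, adjusted p = 0.606).

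The mannose-binding lectins differed in the direction of their means. Mbl1 lay at 86.7, 103.5, 112.5 and 98.5 CPM in healthy mice and at 64.7, 71.8, 67.6 and 85.8 CPM in vehicle mice, a log2 fold change of -0.47 ± 0.23 (edgeR adjusted p = 0.244), and of -0.49 ± 0.13 without I-BET151 mouse 3 (adjusted p = 0.0178). Mbl2 lay at 146.1, 175.4, 141.9 and 151.1 CPM against 142.4, 237.1, 197.6 and 227.6 CPM, a log2 fold change of 0.39 ± 0.24 (adjusted p = 0.365). The ratio of Mbl2 to Mbl1 per length, which no scaling of libraries changes, was 2.43, 2.44, 1.82 and 2.21 in healthy mice, 3.17, 4.76, 4.21 and 3.82 in vehicle mice and 3.88, 4.00, 4.34 and 4.60 in I-BET151 mice. Every STAM mouse, I-BET151 mouse 3 included, was above every healthy mouse. The proteases that both lectins activate did not pass: Masp1 lay at 77.3 ± 22.2 and 66.6 ± 10.8 CPM and Masp2 at 192.4 ± 10.3 and 210.0 ± 10.1 CPM.

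C3 was nearly level between the groups. It lay at 7313, 9271, 8855 and 7445 CPM in healthy mice and at 5716, 8165, 9108 and 8464 CPM in vehicle mice (log2 fold change -0.06 ± 0.39, edgeR adjusted p = 0.942). An interval of 2 SE on either side ran from -0.84 to 0.71. C4b, the component cleaved by C1s and MASP2, lay at 1542.9 ± 203.4 and 2101.3 ± 265.2 CPM and did not pass (log2 fold change 0.45 ± 0.28, adjusted p = 0.369). The ratio of C4b to C3 per length was 0.138 to 0.188 in healthy and 0.209 to 0.272 in vehicle mice, so these groups did not overlap. C4b has a near-identical copy, C4a, and counts could be split between the pair.

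**Figure D3:**
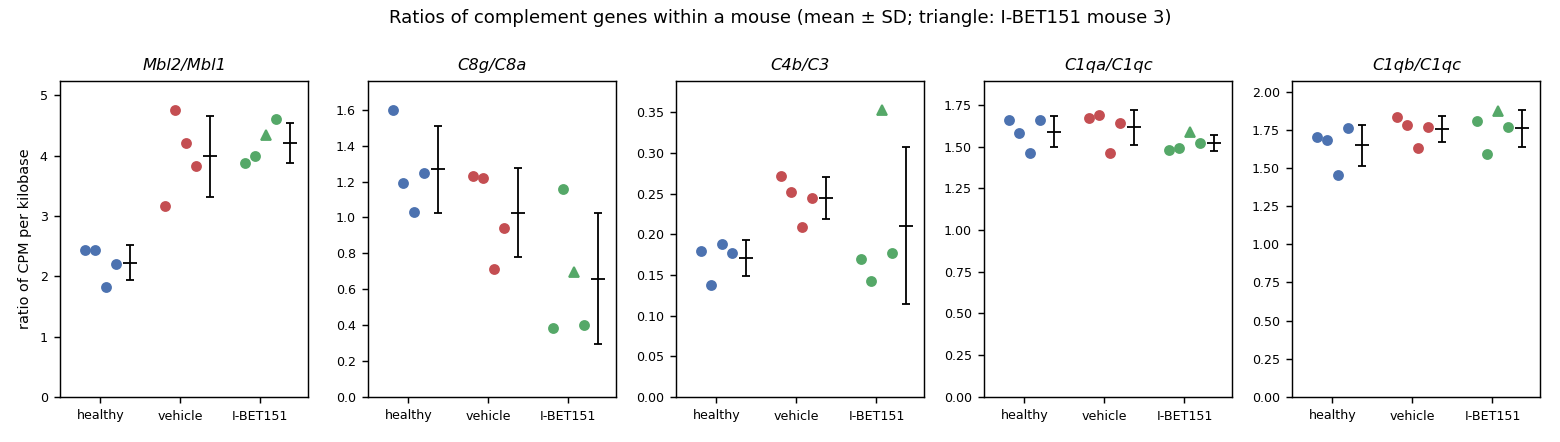
Ratios of the CPM per kilobase of exon of pairs of complement genes in each mouse (vertical axes, from 0); points are mice, the triangle is I-BET151 mouse 3 and bars are means ± SD of 4 mice. Mbl2/Mbl1 is 1.82 to 2.44 in healthy mice and 3.17 to 4.76 in STAM mice, the 2 ratios of C1q chains are alike in all groups, and C8g/C8a is lowest in I-BET151 mice 1 and 4.

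Among the other components of the membrane attack complex, Hc (C5) lay at 730.2 ± 207.8 and 741.8 ± 45.1 CPM, and C6, C7 and C9 did not pass (edgeR adjusted p = 0.423, 0.55 and 0.538). C9, whose product polymerises into the pore, lay at 343.0 ± 129.7 CPM in healthy and 254.4 ± 58.7 CPM in vehicle mice. C7, the 1 terminal component not made mainly by hepatocytes, lay at 1.69 ± 1.02 and 2.58 ± 0.339 CPM. C6 lay at 41.9 CPM in vehicle mouse 3 and at 126.7 to 163.1 CPM in the other vehicle mice.

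None of the 5 soluble regulators passed. Cfi (factor I, which cuts C3b and C4b) lay at 490.7 ± 56.1 and 411.5 ± 63.1 CPM, C4bp, its cofactor for C4b, at 374.0 ± 39.0 and 431.1 ± 40.6 CPM, Serping1 at 935.6 ± 131.6 and 903.7 ± 63.9 CPM and Clu at 1493.9 ± 184.7 and 1507.2 ± 97.6 CPM. Vtn lay at 1809, 2003, 2184 and 1908 CPM in healthy mice and at 1309.9, 1745, 1328 and 1627 CPM in vehicle mice, without overlap, and did not pass (log2 fold change -0.40 ± 0.33, edgeR adjusted p = 0.521; -0.42 ± 0.16 and 0.0853 without I-BET151 mouse 3). None of the membrane regulators passed: Cd55 and Cd59a, which protect host cells from the convertases and the pore, lay at 12.9 ± 2.04 and 45.5 ± 2.29 CPM in healthy mice and at 14 ± 2.26 and 42.7 ± 1.38 CPM in vehicle mice. Cd55 and Cd59a each have a paralog, Cd55b and Cd59b, so their counts are uncertain to that extent. C1ra and C1s1, the proteases of C1, lay at 307.7 ± 37.4 and 390.7 ± 37.8 CPM in healthy mice and at 258.1 ± 41.7 and 386.6 ± 39.4 CPM in vehicle mice and did not pass. Each of these proteases also has a near-identical copy, C1rb and C1s2.

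**Figure D4:**
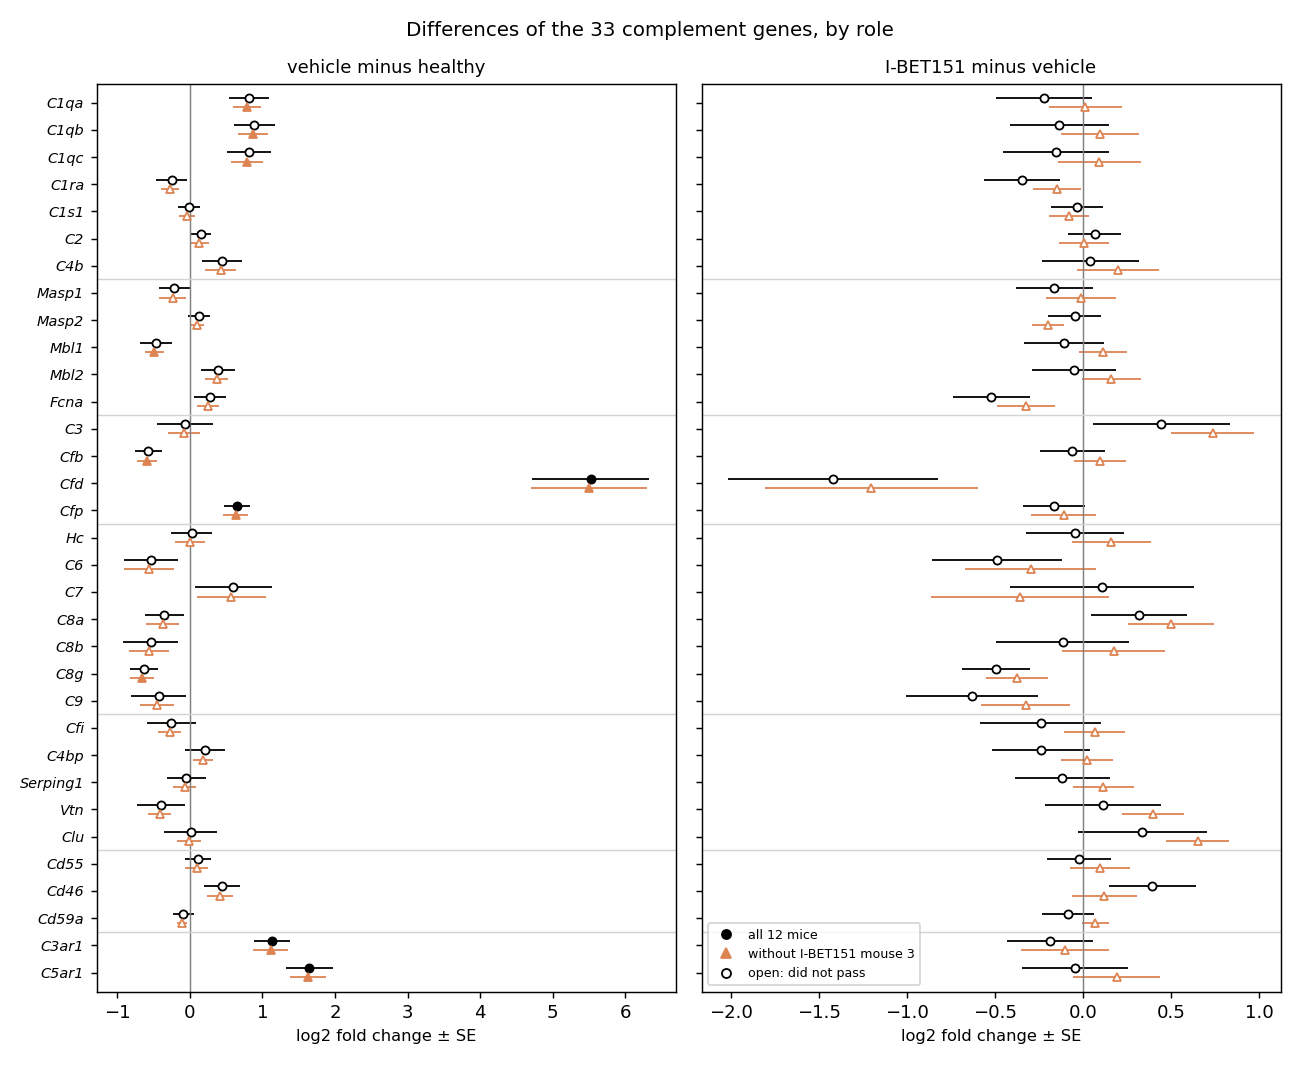
Log2 fold changes ± SE (horizontal axes) of the 33 complement genes, ordered by role, for vehicle minus healthy (left) and I-BET151 minus vehicle (right); circles are the fit of all 12 mice, triangles the fit without I-BET151 mouse 3, and filled symbols passed the test. On the left 4 circles and 10 triangles are filled, and on the right none are.

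Sequencing lane, read from the names of the files, was no clean batch. The 12 libraries lay on 6 lanes, and only lane 2 held a mouse of each group. On that lane C5ar1 was at 1.49 CPM in healthy mouse 1, 4.05 CPM in vehicle mouse 4 and 5.93 CPM in I-BET151 mouse 4, and C3ar1 at 4.45, 7.79 and 7.10 CPM. With lane as a covariate, 1 member was higher in vehicle than in healthy mice, beside 0.196% of all genes tested. This was Cfd, which had to differ as given above, and no other member passed. The log2 fold changes of C5ar1, C3ar1 and Cfp were then 1.51, 0.78 and 0.51, with edgeR adjusted p-values of 0.582, 0.713 and 0.713. The lane term left 4 residual degrees of freedom in place of 9. The count of higher members was 3 with DESeq2's size factors, with the replicate block or with at least 10 counts required in every mouse. All genes had shares of 5.43%, 3.81% and 5.04% there. The count was 2 without healthy mouse 3, healthy mouse 4 or vehicle mouse 3, beside 2.66%, 2.84% and 2.73% of all genes.

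The comparison of I-BET151 with vehicle mice asks what the inhibitor, given in its own carrier, changed in STAM liver. It uses the same vehicle mice as the comparison above. No member passed at an adjusted p of at most 0.1. In edgeR's test on all 12 mice 0 members were higher, beside 0.0951% of all genes tested, and 0 were lower, beside 0.256%. Without I-BET151 mouse 3 the counts were again 0 and 0, beside 0.914% and 1.46%. Of the 33 members, 3 (Cfd, Fcna and C8g) had an unadjusted p under 0.05 on all 12 mice, a share of 9.09% beside 8.68% of all genes tested. DESeq2 called 0. limma-voom with sample weights, which gave I-BET151 mouse 3 a weight of 0.0749, called C3 and Clu higher (6.06% of the members, beside 3.09% of all genes) and C8g lower (3.03%, beside 4.07%). No member had groups that did not overlap, beside 2.41% of all genes for higher and 2.63% for lower. The median log2 fold change of the members was -0.11 on all 12 mice and 0.07 without I-BET151 mouse 3, against 0.024 and 0.0042 over all genes, so its sign turned with that mouse.

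Neither receptor gene differed from vehicle mice beyond the spread between mice. C5ar1 lay at 5.67, 2.98, 2.10 and 5.93 CPM in the I-BET151 mice, which spanned the vehicle range, with a log2 fold change of -0.04 ± 0.30 (interval of 2 SE -0.65 to 0.56, edgeR adjusted p = 0.987). C3ar1 lay at 8.75, 4.82, 5.54 and 7.10 CPM, with -0.19 ± 0.24 (interval -0.67 to 0.30, adjusted p = 0.894). C1qa, C1qb and C1qc lay at 62.1, 79.4 and 77.8 CPM in I-BET151 mouse 1 and at 66.5, 80.9 and 81.3 CPM in mouse 4, within the vehicle range, but at 24.9, 30.7 and 29.1 CPM in mouse 3, below every healthy mouse. Cfp lay at 32.4, 27.4, 27.5 and 34.6 CPM, inside the vehicle range also in mouse 3.

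The largest differences from vehicle mice were those of Cfd, C9, Fcna, C8g and C6, and all were lower means that did not pass. Cfd had a log2 fold change of -1.42 ± 0.60 (edgeR adjusted p = 0.515), and -1.20 without I-BET151 mouse 3 (adjusted p = 0.324). Its I-BET151 mice, from 1.09 to 3.06 CPM, all lay inside the wide vehicle range of 0.952 to 8.29 CPM. C9 lay at 211.1, 191.9, 52.2 and 201.4 CPM, with -0.63 ± 0.38 (adjusted p = 0.684) and -0.33 ± 0.25 without mouse 3. Fcna lay at 28.6, 20, 13.4 and 29.0 CPM, with -0.52 ± 0.22 (adjusted p = 0.513) and -0.33 ± 0.17 without mouse 3. C8g lay at 85.7, 121.7, 64.7 and 69.6 CPM, with -0.49 ± 0.20 (adjusted p = 0.479); 3 of the 4 I-BET151 mice were below every vehicle mouse. C6 lay at 93.1, 100.5, 49.4 and 88.0 CPM, with -0.49 ± 0.37 (adjusted p = 0.782).

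C3 and Clu split the I-BET151 mice. C3 lay at 14183, 8843, 3733 and 16013 CPM, so that mice 1 and 4 were above and mouse 3 below every other mouse of the series. The log2 fold change against vehicle was 0.44 ± 0.39 (edgeR adjusted p = 0.816), and 0.74 ± 0.24 without mouse 3 (adjusted p = 0.146). Clu lay at 2086, 1859, 555.0 and 3108 CPM, against 1376 to 1608 CPM in vehicle mice. Its log2 fold change was 0.34 ± 0.37 (adjusted p = 0.865), and 0.65 ± 0.18 without mouse 3 (adjusted p = 0.107), where the remaining 3 mice were above every vehicle mouse. The ratio of C8g to C8a per length was 0.382 and 0.399 in I-BET151 mice 1 and 4, 1.16 in mouse 2, 0.694 in mouse 3 and 0.715 to 1.23 in vehicle mice.

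I-BET151 mouse 3 was the lowest of its group in 25 of the 33 members (75.8%), against 39.3% of all genes tested. It was the lowest of all 12 mice in 22 members (66.7%), against 30.1% of all genes tested. Among the 21 hepatocyte-made members it was lowest of its group in 17 (81%). Their median ratio to the mean of the other 3 I-BET151 mice was 0.487, against 1.02 over all genes tested. The lowest ratios were those of Clu (0.236), Cfi (0.253), C9 (0.259), C3 (0.287), C8b (0.294) and Vtn (0.301). Not all hepatocyte-made members were low. C1s1, C2 and Masp2 stood at 418.6, 44.5 and 266.6 CPM in this mouse, with ratios of 1.15, 1.20 and 1.47. C7 and Cd46 were highest of the 12 mice in this one, at 5.11 and 3.77 CPM. What set this library apart was not tested.

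**Figure D5:**
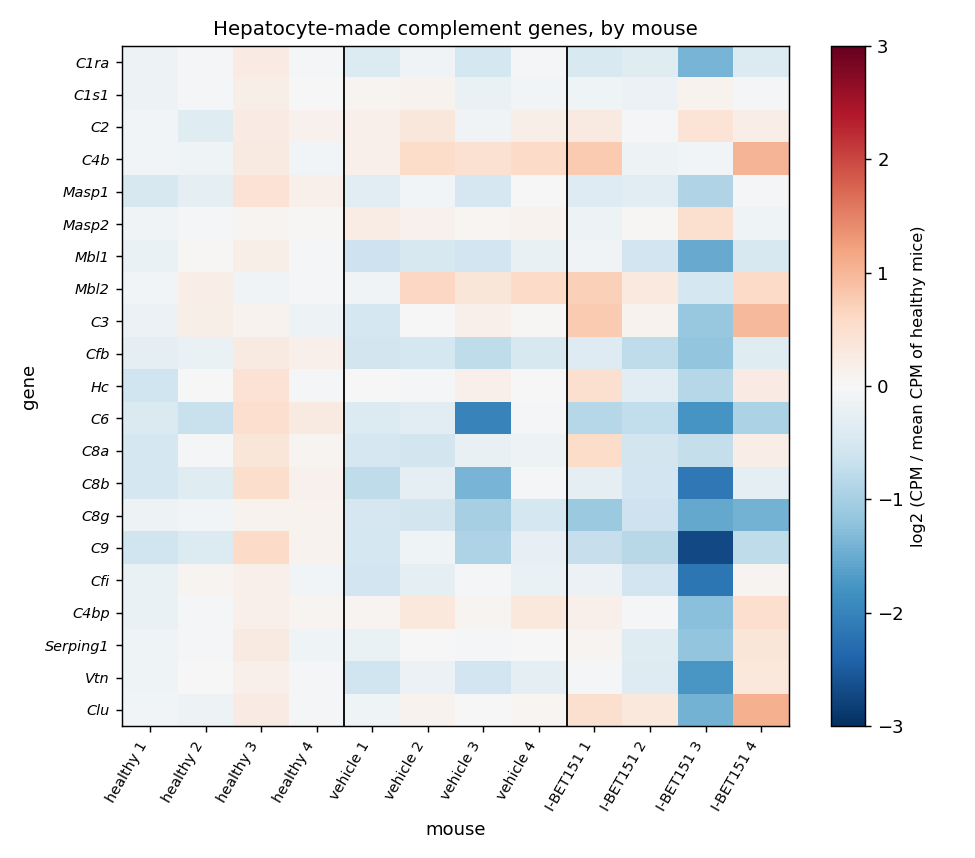
Levels of the 21 hepatocyte-made complement genes (rows, by role) in each of the 12 mice (columns) as log2 of the CPM over the mean CPM of the healthy mice; blue is below and red above the healthy mean. The column of I-BET151 mouse 3 is the bluest, with C9 at 52.2 CPM, and I-BET151 mice 1 and 4 are red in C3, C4b and Clu. C1ra, Mbl1, Cfb, C6, C8b, C8g and C9 are below the healthy mean in every vehicle and I-BET151 mouse.

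The comparison of I-BET151 with healthy mice reuses the mice of the comparisons above. In edgeR's test at an adjusted p of at most 0.05 on all 12 mice, 4 members were higher (Cfd, C5ar1, C3ar1 and Cd46), beside 9.88% of all genes tested, and 2 were lower (C8g and Cfb), beside 5.25%. As shares of the members these are 12.1% and 6.06%, near those of all genes, and Cfd again had to differ. Without I-BET151 mouse 3, 8 (24.2%) were higher, beside 10.9%, and 4 were lower, beside 9.53%. C1qa, C1qb, C1qc, Mbl2 and Clu then joined the higher members and C1ra and C9 the lower ones, while Cd46 missed the threshold. The count of higher members was 2 without healthy mouse 2, 3 or 4 or without I-BET151 mouse 4, beside 5.3% to 7.75% of all genes. That of lower members was 1 without healthy mouse 2, 3 or 4, vehicle mouse 2 or I-BET151 mouse 2, beside 2.18% to 7.88%. With the replicate number as a block, 2 members were higher (Cfd and C5ar1) and 1 was lower (C8g), beside 6.33% and 3.02%. With lane as a covariate there were 0 of either, beside 0.398% and 0.107% of all genes tested.

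C5ar1 was higher by a log2 fold change of 1.60 ± 0.32 (3.04-fold, edgeR adjusted p = 0.00606), beside the 1.65 ± 0.32 of vehicle against healthy mice. It passed in all 12 fits that left out 1 mouse, and had 1.52 with lane as a covariate (adjusted p = 0.278). Cfd had a fitted difference of 4.10 ± 0.81 (adjusted p = 0.00589), beside 5.52 ± 0.81, given as a description as above. C3ar1 was higher by 0.95 ± 0.25 (adjusted p = 0.0224), a call that was lost without healthy mouse 2, 3 or 4 or I-BET151 mouse 1 or 4 (adjusted p from 0.0513 to 0.0761). Cd46 lay at 1.36, 1.27, 1.54 and 1.35 CPM in healthy mice and at 2.09, 1.66, 3.77 and 2.30 CPM in I-BET151 mice, with 0.83 ± 0.25 (adjusted p = 0.039). It passed in 4 of the 12 fits that left out 1 mouse, and was lost without any 1 healthy mouse, vehicle mouse 2 or 4, or I-BET151 mouse 3 or 4 (adjusted p from 0.0509 to 0.102). With I-BET151 mouse 3 left out it had 0.54 ± 0.19.

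C8g was lower than in healthy mice, and its groups did not overlap. All 4 I-BET151 mice, from 64.7 to 121.7 CPM, were below all 4 healthy mice, from 168.3 to 202.3 CPM. The log2 fold change was -1.13 ± 0.20 (2.19-fold lower, edgeR adjusted p = 0.00291), and -1.03 ± 0.18 without mouse 3 (adjusted p = 0.0024). It passed in all 12 fits that left out 1 mouse and missed the threshold with lane as a covariate (log2 fold change -0.97, adjusted p = 0.0878). Cfb lay at 13.3, 10.2, 7.57 and 13.5 CPM, with -0.63 ± 0.19 (adjusted p = 0.0352), and was lost without healthy mouse 2, 3 or 4, vehicle mouse 2 or I-BET151 mouse 2 (adjusted p from 0.051 to 0.112). C9 and C1ra had -1.06 ± 0.38 and -0.60 ± 0.22 on all 12 mice (adjusted p = 0.0719 and 0.0748), and -0.78 ± 0.26 and -0.42 ± 0.14 without mouse 3 (adjusted p = 0.0488 and 0.0463). C6 lay below the healthy range in all 4 I-BET151 mice and did not pass (log2 fold change -1.03 ± 0.37, adjusted p = 0.0758).

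Without mouse 3, the C1q chains were higher than in healthy mice by 0.80 ± 0.21, 0.96 ± 0.22 and 0.88 ± 0.23 for C1qa, C1qb and C1qc (edgeR adjusted p = 0.0176, 0.0101 and 0.0201). Clu was higher by 0.64 ± 0.18 (adjusted p = 0.0247) and Mbl2 by 0.53 ± 0.17 (adjusted p = 0.0435). With mouse 3 included, the 5 genes had adjusted p-values from 0.0858 to 0.532.

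A further 27 genes of complement and its receptors were set beside the members, of which 24 passed the filter on low counts. Between vehicle and healthy mice 1 passed as higher, C4a, the near-identical copy of C4b, at 128.0 against 67.4 CPM (log2 fold change 0.93, edgeR adjusted p = 0.0108), and 1 as lower, Cfhr3, at 5.46 against 8.53 CPM (-0.64, adjusted p = 0.0336). Without I-BET151 mouse 3 the counts were 4 and 6. The higher ones then included Itgax and Itgb2, chains of a phagocyte receptor for C3 fragments, and Vsig4, a C3b receptor of Kupffer cells. Between I-BET151 and vehicle mice 0 of the 24 passed in either direction, with and without that mouse.

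Promoters are shown for some of the members described above. The RefSeq promoter table (GRCm38.p6) held an entry for 25 of the 33 members. C1qa, C2, C4b, Cfb, Cfi, Clu, Masp1 and Serping1 had none. The 120 bases directly before the RefSeq start are printed 5′ to 3′ on the strand of the gene. They are given for the genes higher in vehicle mice whose window lies before their GENCODE gene or within a few bases of its start (C1qb, Cfp, Cfd and C3ar1), and for C3, the most abundant member, and C8a, the reference of the C8 ratio. Capitals mark letters found by the motif search.
C1qb, chr4:136886201-136886320, minus strand: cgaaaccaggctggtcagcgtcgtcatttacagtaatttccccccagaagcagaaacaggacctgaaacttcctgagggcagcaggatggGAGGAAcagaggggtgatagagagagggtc
Cfp, chrX:20931556-20931675, minus strand: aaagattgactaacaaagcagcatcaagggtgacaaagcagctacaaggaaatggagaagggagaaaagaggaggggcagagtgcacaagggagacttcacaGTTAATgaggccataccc
Cfd, chr10:79890733-79890852, plus strand: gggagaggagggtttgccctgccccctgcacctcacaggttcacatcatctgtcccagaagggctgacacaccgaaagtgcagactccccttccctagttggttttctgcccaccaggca
C3ar1, chr6:122856158-122856277, minus strand: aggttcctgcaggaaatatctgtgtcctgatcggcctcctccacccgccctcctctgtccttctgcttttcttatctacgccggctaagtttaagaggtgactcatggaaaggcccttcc
C3, chr17:57228137-57228256, minus strand: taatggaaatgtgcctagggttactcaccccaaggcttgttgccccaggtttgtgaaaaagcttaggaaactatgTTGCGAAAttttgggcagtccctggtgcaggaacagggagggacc
C8a, chr4:104876399-104876518, minus strand: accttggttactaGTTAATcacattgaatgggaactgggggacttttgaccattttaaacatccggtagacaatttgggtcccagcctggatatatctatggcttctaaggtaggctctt

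Motifs of 3 kinds were searched on both strands of the 250 bases before each start. GAGGAA, the core bound by PU.1, a factor of myeloid cells, was in 4 of the 25 members with an entry (C1qb, C1qc, Fcna and Cd59a), against 23.3% of all promoters of that length. By source it was in 3 of 6 members of myeloid cells and 0 of 14 members of hepatocytes. In C1qb it began 30 bases before the start. GTTAAT, a half-site of the liver factor HNF1, was in 8 members, against 6.43% of all promoters, of which 6 are hepatocyte-made (C1ra, C4bp, C8a, C8b, Hc and Vtn), 1 is of myeloid cells (Cfp) and 1 of other cells (C7). In C8a it began 107 bases before the start. TTGCNNAA, a sequence bound by C/EBP factors, was in 3 members (C1s1, C3 and C9), against 9.56% of all promoters, and in C3 it began 45 bases before the start. None of the 3 was found in the windows of Cfd, C3ar1 or C5ar1. A match describes the letters of the window only.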

How the data were processed

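Liver RNA of 12 mice was sequenced from a stranded Illumina mRNA kit as paired reads. The authors mapped reads to mm10 with STAR 2.5.1b, and deposited whole-number counts per gene, not normalized. The methods and processing notes name HTSeq, whereas the file names point to featureCounts, and neither the annotation release nor the strand setting is given in the sources used here. Of 47729 Ensembl gene identifiers, 47310 were matched to GENCODE M21, which gave symbols, positions and exon lengths.

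From these counts, edgeR 4.0.16 (run under R 4.3.3) was applied with filterByExpr (minimum count 10), TMM scaling, 1 fit of 3 groups, and the quasi-likelihood test with Benjamini-Hochberg adjustment over all genes. The thresholds were an adjusted p of 0.05 for either STAM group against healthy mice and 0.1 for I-BET151 against vehicle. The SE is the fold change over the square root of F. limma 3.58.1 and DESeq2 1.42.0 served as alternatives, and the steps were tested on simulated data. Depth was 34711229 to 53365596 counts; rates below about 1 CPM rest on few reads.

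Full statistics are given for members that passed in the fit of all 12 mice or without I-BET151 mouse 3, and for the 5 largest differences in each comparison. The ratios of genes were described without a test. Members, lists and tests were chosen with earlier results of these data known. No 2 libraries of a group agreed within counting noise (chi-square per degree of freedom at least 30.5).

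Groups share the replicate numbers 1 to 4 in the labels. Same-numbered mice did not deviate together (mean r = -0.0927, against 0.0306 in other pairs), so the numbers were not used to pair mice. Some genes among the further complement genes are not reported here.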

Additional observations from a re-analysis of the deposited data

Results flagged for a closer look

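In groups of 4 mice, a member was picked out where the highest or lowest mouse lay far from the nearest other mouse (Dixon's test of a gap over the range of the group). This met 5 of 99 combinations of member and group, and chance alone gives about 1 in 20. In I-BET151 mouse 3, C1ra lay at 117.0 CPM, against 222.5 to 238.5 CPM in the other I-BET151 mice, and C9 at 52.2 CPM, against 191.9 to 211.1 CPM. In vehicle mouse 3, C8g lay at 93.1 CPM, against 126.7 to 132.7 CPM in the other vehicle mice, and Cd55 at 17.4 CPM, against 12.6 to 13.3 CPM. In healthy mouse 3, C4b lay at 1846.8 CPM, against 1417 to 1456 CPM in the other healthy mice. No cause was tested.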

How the results depend on the processing

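The 29 log2 fold changes of the members given with full statistics kept their direction in every alternative. Of 577 such values, 491 also kept their side of the threshold, 46 lost it and 40 gained it. Outside these, members changed sign. Between vehicle and healthy mice C9, C8b, C1ra and C7 reached 0.26, 0.07, 0.14 and -0.86 in alternatives. Among others that turned, C3, Cfi, Masp1 and Serping1, with lower means in vehicle mice, reached 0.29, 0.24, 0.23 and 0.24. Cd59a, Cd55 and C2 turned as well, to 0.08, -0.11 and -0.04. For vehicle against healthy mice 4 members were higher and 0 lower. With lane as a covariate the count was 1 higher (Cfd, which had to differ), beside 0.196% of all genes. Sample weights in limma-voom gave 9 higher and 3 lower (27.3% and 9.09%, beside 18.9% and 14.8%). With only the 2 groups fitted there were 8 and 4 (24.2% and 12.1%, beside 12.9% and 11.1%). DESeq2 gave 1 lower (3.03%, beside 1.69%). A threshold of 0.1 gave 2 lower, for which no share of all genes is given. For I-BET151 against vehicle, where the counts were 0 and 0, sample weights gave 2 higher and 1 lower (6.06% and 3.03%, beside 3.09% and 4.07%). For I-BET151 against healthy the counts were 4 and 2. The replicate block gave 2 and 1 (6.06% and 3.03%, beside 6.33% and 3.02%), and lane gave 0 and 0. Sample weights gave 12 and 5 (36.4% and 15.2%, beside 15.9% and 13.1%). DESeq2 gave 5 lower (15.2%, beside 4.55%), and only the 2 groups fitted gave 1 lower (3.03%, beside 2.05%). A threshold of 0.1 gave 6 lower, again without a share of all genes. The cause of these shifts was not tested.

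Leaving out each mouse in turn gave 2 to 7 higher and 0 to 3 lower members in vehicle than in healthy mice. All genes had shares of 2.66% to 12% and 0.476% to 10.3% there. Between I-BET151 and vehicle mice the counts were 0 and 0. In I-BET151 against healthy mice there were 2 to 8 higher and 1 to 4 lower, beside 5.3% to 13.8% and 2.18% to 9.53%. The highest counts of members were those without I-BET151 mouse 3. The replicate block moved the counts of calls as given, and the replicate numbers do not mark a shared source. Cfd failed the stricter filter of at least 10 counts in every mouse and has no value there. Depth limits low members, with 0 to 11 counts of Cfd, 14 to 132 of C7, 45 to 70 of C5ar1 and 47 to 64 of Cd46 in healthy libraries.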
